A study of Mus musculus with 20 samples.

Results

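The genes of 10 extracellular matrix proteinases were followed in RNA-seq of mouse temporomandibular joint (TMJ) condylar heads. They were taken by name from the 54532 genes counted. *Adamts1*, *Adamts4*, *Adamts5*, *Adamts8*, *Adamts9* and *Adamts15* encode secreted ADAMTS metalloproteinases that cut the large proteoglycans aggrecan and versican, *Adamts2*, *Adamts3* and *Adamts14* encode procollagen N-proteinases, and *Bmp1* encodes the procollagen C-proteinase. All 10 genes passed the filter on low counts.

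The series holds 8 libraries labelled Control and 12 labelled LOXL2_KO. All animals of both groups carried a floxed *Loxl2* gene and a tamoxifen-inducible Cre recombinase placed in the aggrecan gene (Acan-CreERT2), whose promoter restricts Cre to aggrecan-expressing cells. They were 6 months old when injections began, with vehicle for control (4 males and 4 females) or with tamoxifen at 75 mg/kg for knockout (6 males and 6 females), on 5 consecutive days and then monthly, and tissue was taken 4 months later. The drug and the deletion cannot be told apart in this design. Which library came from which sex was not given in the labels. *Loxl2*, the gene of a collagen-crosslinking lysyl oxidase, showed no decrease under the knockout label. It stood at 64.5 CPM ± 30.9 (SD, n = 8) in control against 101 ± 26.9 (SD, n = 12). The log2 fold change of 0.64 (SE 0.28) did not pass (edgeR adjusted p = 0.101). It passed as an increase without knockout replicate 12 (0.74, edgeR adjusted p = 0.0313), the lowest library of its group at 28.8 CPM. The other libraries labelled knockout ran from 75.7 to 126 CPM. CPM are counts scaled to a common library size with TMM factors. The counts are of the whole gene in whole tissue, so they separate neither the floxed exons from the rest of the transcript nor aggrecan-expressing cells from others, and they check the label only in part. Because the count was not lower, samples are called libraries labelled knockout throughout.

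The condylar head was collected with some bone beneath the cartilage, and its libraries carried abundant skeletal muscle RNA. Summed CPM of 10 muscle markers ran from 33431 to 183839 over the 20 libraries, whereas 10 chondrocyte markers summed to between 66.7 and 3089. Of the cartilage markers, *Matn1* was at 0 in 18 of 20 libraries, *Cnmd* in 4, *Ucma* in 2, and *Matn3* and *Snorc* in 1 each. Library totals ran from 11153820 to 27045668 counts, at which 3 counts correspond to between 0.0964 and 0.246 CPM.

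Aggrecan gives cartilage its resistance to compression, and its loss from the matrix is an early event in osteoarthritis. ADAMTS aggrecanases clip the aggrecan core protein between its globular domains and further along the chain, and they are made as inactive precursors, activated by proprotein convertases, restrained chiefly by the inhibitor TIMP3 and removed from the matrix through the receptor LRP1. The procollagen proteinases act in the opposite arm of matrix turnover. They trim the propeptides from newly secreted fibrillar procollagens so that fibrils can assemble, and *Bmp1* products also mature lysyl oxidase.

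The genes lie on 8 chromosomes of GRCm38/mm10 (1-based positions from GENCODE M21), in 2 cases as neighbouring pairs. *Adamts1* (ENSMUSG00000022893, chr16:85793827-85803113) and *Adamts5* (ENSMUSG00000022894, chr16:85856173-85901828) are 53059 bases apart on the minus strand. *Adamts15* (ENSMUSG00000033453, chr9:30899155-30922452, minus strand) and *Adamts8* (ENSMUSG00000031994, chr9:30942562-30963838, plus strand) are 20109 bases apart, and neither pair has a protein-coding gene between its members. *Adamts4* (ENSMUSG00000006403, chr1:171250421-171260637, plus strand), *Adamts9* (ENSMUSG00000030022, chr6:92772699-92943492, minus strand), *Adamts2* (ENSMUSG00000036545, chr11:50602084-50807573, plus strand), *Adamts3* (ENSMUSG00000043635, chr5:89677087-89883334, minus strand), *Adamts14* (ENSMUSG00000059901, chr10:61197112-61273438, minus strand) and *Bmp1* (ENSMUSG00000022098, chr14:70474558-70520234, minus strand) stand apart from other members.

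Promoter sequence was matched in RefSeq (GRCm38.p6) for 5 of the 10 genes, *Adamts1*, *Adamts2*, *Adamts3*, *Adamts9* and *Adamts14*. The 150 bases upstream of the start site are shown for the 3 of these whose transcripts were higher in the libraries labelled knockout and for *Adamts1*, whose level did not pass. They are written 5′ to 3′ on the strand of the gene, with capitals marking GGGCGG on either strand (the GC box of Sp and KLF factors) and TATAAA.
Adamts2 (chr11:50601935-50602084, plus strand): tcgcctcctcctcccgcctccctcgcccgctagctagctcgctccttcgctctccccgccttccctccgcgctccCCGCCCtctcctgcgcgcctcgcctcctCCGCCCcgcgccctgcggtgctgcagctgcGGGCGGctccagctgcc
Adamts9 (chr6:92943535-92943684, minus strand): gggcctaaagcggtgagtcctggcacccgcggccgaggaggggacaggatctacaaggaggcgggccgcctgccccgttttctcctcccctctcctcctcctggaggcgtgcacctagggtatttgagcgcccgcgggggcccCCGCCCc
Adamts14 (chr10:61273420-61273569, minus strand): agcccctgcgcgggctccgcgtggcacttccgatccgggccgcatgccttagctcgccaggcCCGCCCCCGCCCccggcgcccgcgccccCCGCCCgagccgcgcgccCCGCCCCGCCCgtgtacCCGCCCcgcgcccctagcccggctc
Adamts1 (chr16:85803114-85803263, minus strand): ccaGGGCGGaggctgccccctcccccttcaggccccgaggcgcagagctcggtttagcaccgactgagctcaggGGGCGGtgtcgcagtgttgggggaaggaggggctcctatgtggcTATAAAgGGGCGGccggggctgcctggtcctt
Over the 250 bases upstream, GC content was 78% for *Adamts2*, 71.2% for *Adamts9*, 76.4% for *Adamts14*, 65.6% for *Adamts1* and 78% for *Adamts3*, which was not called, beside a median of 52.4% over 32851 promoters. The GC box was present in all 5 matched promoters, with 6 matches in *Adamts14*, 5 in *Adamts2* (3 of them in the stretch shown), 3 in *Adamts1* and 1 each in *Adamts9* and *Adamts3*, and in 32.7% of all promoters. TATAAA was found in *Adamts1* alone of the 5, from 32 to 27 bases upstream, and in 12.4% of all promoters. None of the 5 held TGANTCA (AP-1, 6.75% of all promoters), TGTGGT (RUNX, 14%), CCAAT (33.8%), GTCTAGAC (SMAD, 0.167%) or an NF-kappaB motif (3.9%). The E box CANNTG (66.2%) matched in *Adamts2* and *Adamts9*, and GGAAGT (ETS, 19.7%) in *Adamts14*. A match describes the letters of the window and is not evidence of binding.

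To ask whether the 2 arms of matrix turnover differed between the groups, each gene was tested in a fit over all 15984 genes that passed the filter. Of the 10 proteinase genes, 5 were higher in the libraries labelled knockout and 0 were lower, beside 12.0% of all tested genes called higher and 23.0% called in either direction (edgeR adjusted p under 0.05). These 5 were *Adamts4* and *Adamts9* of the 6 aggrecan-cleaving genes, and *Adamts2*, *Adamts14* and *Bmp1* of the 4 procollagen-cleaving genes. Of these, all but *Adamts14* were at least 2-fold higher, which with the same call held for 3.71% of all tested genes. Every library labelled knockout lay above every control library for 0.213% of all tested genes and for 0 of the 10. The median log2 fold change was 0.49 over the aggrecan-cleaving genes, 0.97 over the procollagen-cleaving genes and −0.02 over all tested genes. Neither member list had a test of its own. In tissue RNA, more cells of a type and more RNA per cell cannot be told apart, nor can fewer cells and less RNA per cell.

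**Figure D1:**
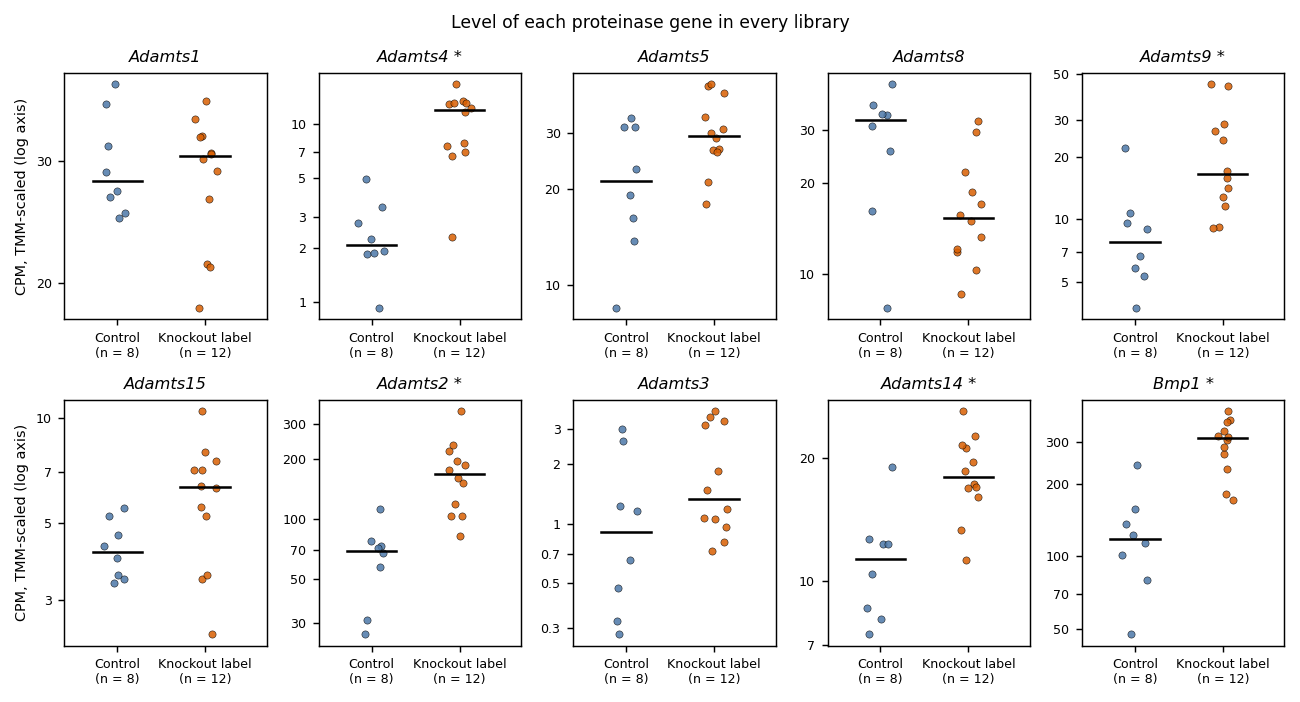
Level of each proteinase gene in each library, as TMM-scaled CPM on a log axis, for 8 control libraries and 12 libraries labelled knockout. Points are libraries, horizontal lines are medians, and an asterisk marks an edgeR adjusted p under 0.05; 11 of the 12 *Adamts4* points of the libraries labelled knockout lie above every control point, and the groups overlap for every gene.

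Of the aggrecan-cleaving genes, *Adamts4* showed the largest fold change. This inducible aggrecanase ran from 0.919 CPM through a median of 2.09 to 4.91 in control, and from 2.33 through 12.0 to 16.8 in the libraries labelled knockout. Of these 12 libraries, 11 lay above every control library, and only replicate 12, at 2.33 CPM, lay inside the control range. The means were 2.49 CPM ± 1.22 (SD, n = 8) and 10.4 ± 4.09 (SD, n = 12), which gave a log2 fold change of 2.06 (SE 0.32), or 4.17-fold (edgeR adjusted p = 0.00104). It ranked 23 by p-value among all tested genes, and 99 of these had a larger log2 fold change.

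*Adamts9*, a versican- and aggrecan-cleaving enzyme that is also needed in development, was the other gene called. It ran from 3.75 CPM through a median of 7.81 to 21.9 in control and from 9.05 through 16.5 to 44.4 in the libraries labelled knockout. All 12 of the latter lay above the control median, but only 5 lay above the highest control library. The log2 fold change was 1.23 (SE 0.35), or 2.34-fold (edgeR adjusted p = 0.0172), and was 1.56 (adjusted p = 0.00408) without control replicate 1, the highest control library. *Adamts9* shares exonic bases with *A730049H05Rik* (1381 bases) and *Gm15737* (424 bases) on the opposite strand, which had 101 and 84 counts over all 20 libraries.

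The remaining aggrecan-cleaving genes did not pass. *Adamts5*, regarded as the chief aggrecanase of mouse cartilage, ran from 8.42 CPM through 21.2 to 33.5 in control and from 17.9 through 29.5 to 42.8 in the other group. Of 12 libraries labelled knockout, 10 exceeded the control median and 4 exceeded the highest control library. The edgeR log2 fold change was 0.46 (SE 0.22, adjusted p = 0.127, unadjusted 0.0456). *Adamts5* did not pass with the DESeq2 Wald test either (0.46, adjusted p = 0.113). *Adamts15*, which cuts versican and aggrecan, ran from 3.34 CPM through 4.12 to 5.49 and from 2.38 through 6.32 to 10.5. In the libraries labelled knockout, 8 lay above its control range and 1 lay below it, and the SD was 2.24 CPM beside 0.824 in control. Its edgeR log2 fold change of 0.52 (SE 0.22, adjusted p = 0.0904) passed without knockout replicate 12 (0.61, adjusted p = 0.0241).

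*Adamts8*, an antiangiogenic ADAMTS with weak aggrecanase activity, went in the other direction. It ran from 7.71 CPM through 32.5 to 42.6 in control and from 8.58 through 15.4 to 32.3 in the libraries labelled knockout. All 12 libraries labelled knockout lay below the control median, although control replicate 3 was lower than every one of them. The log2 fold change of −0.72 (SE 0.27) did not pass (edgeR adjusted p = 0.0559). It passed without control replicate 3 (−0.87, edgeR adjusted p = 0.0161) and without knockout replicate 6 (−0.82, 0.0335) or 12 (−0.84, 0.0224). The DESeq2 Wald test also called it (−0.73, 0.0347). In 17 of 20 omissions of single libraries it did not pass (edgeR adjusted p up to 0.109). The same held for 12 of 15 other alternatives (up to 0.597). *Adamts8* shares 489 exonic bases with the antisense gene *Gm29724*, which had 68 counts over all libraries. *Adamts1*, a versican- and aggrecan-cleaving enzyme also known from ovulation, had the narrowest spread of the 10 genes relative to its mean in both groups. It ran from 24.8 CPM through 28 to 38.6 in control and from 18.4 through 30.4 to 36.5 in the other group, an edgeR log2 fold change of −0.06 (SE 0.13, adjusted p = 0.763) whose fold had a 95% interval from 0.809 to 1.14.

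**Figure D2:**
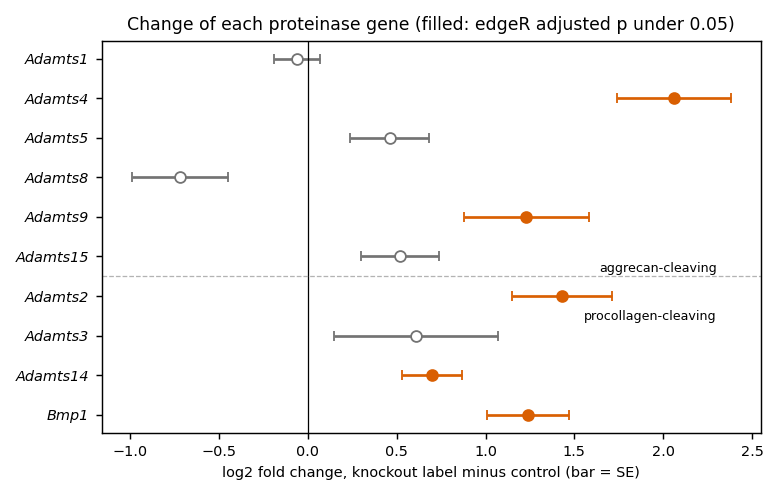
Log2 fold change of each proteinase gene, libraries labelled knockout minus control, with bars of 1 SE from the edgeR fit. Filled points passed an adjusted p of 0.05; *Adamts4* lies farthest to the right at 2.06 and *Adamts8* alone lies clearly to the left, at −0.72 and open.

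Levels were compared between genes per length, as RPKM (CPM per kilobase of exon). In control the order among the aggrecan-cleaving genes was *Adamts8* (6.16 RPKM ± 2.48, SD, n = 8), *Adamts1* (5.64 ± 0.97), *Adamts5* (2.05 ± 0.864), *Adamts9* (0.605 ± 0.378), *Adamts4* (0.517 ± 0.254) and *Adamts15* (0.409 ± 0.0795). *Adamts8* exceeded *Adamts1*, and *Adamts9* exceeded *Adamts4*, in only 5 of 8 libraries, as *Adamts4* did *Adamts15*, so these neighbours did not differ beyond their spread. The same held for *Adamts2* over *Adamts8* and *Adamts14* over *Adamts5*, which were next to each other in the order of all 10 genes. In the libraries labelled knockout *Adamts1* came first (5.4 RPKM ± 1.08, SD, n = 12), followed by *Adamts8* (3.73 ± 1.61), *Adamts5* (2.84 ± 0.738), *Adamts4* (2.17 ± 0.851), *Adamts9* (1.42 ± 0.822) and *Adamts15* (0.587 ± 0.216). *Adamts1* exceeded *Adamts8* in 10 of these 12 libraries, and *Adamts8* exceeded *Adamts14*, the next in the order of all 10, in 5.

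The summed level of the 6 aggrecan-cleaving genes differed by less than its SD between the groups, while its make-up was not the same. The sum was 15.4 RPKM ± 3.17 (SD, n = 8) in control against 16.1 ± 2.47 (SD, n = 12) under the knockout label. Of this sum *Adamts4* held 3.5% ± 2.26 in control and 13.4% ± 4.76 in the other group, and *Adamts9* held 3.79% ± 1.8 and 8.74% ± 4.57. *Adamts8* held 38.8% ± 11.8 and 22.8% ± 8.87. The share of *Adamts1* was 37.6% ± 8.01 and 33.7% ± 5.84, that of *Adamts5* 13.5% ± 6.38 and 17.8% ± 4.37, and that of *Adamts15* 2.78% ± 0.926 and 3.62% ± 1.16. The median ratio of *Adamts4* to *Adamts8* per length was 0.0656 in control and 0.664 in the libraries labelled knockout, all 12 of which were above the control median and 6 above the control maximum of 0.61. These shares and ratios restate the levels above and were not tested.

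**Figure D3:**
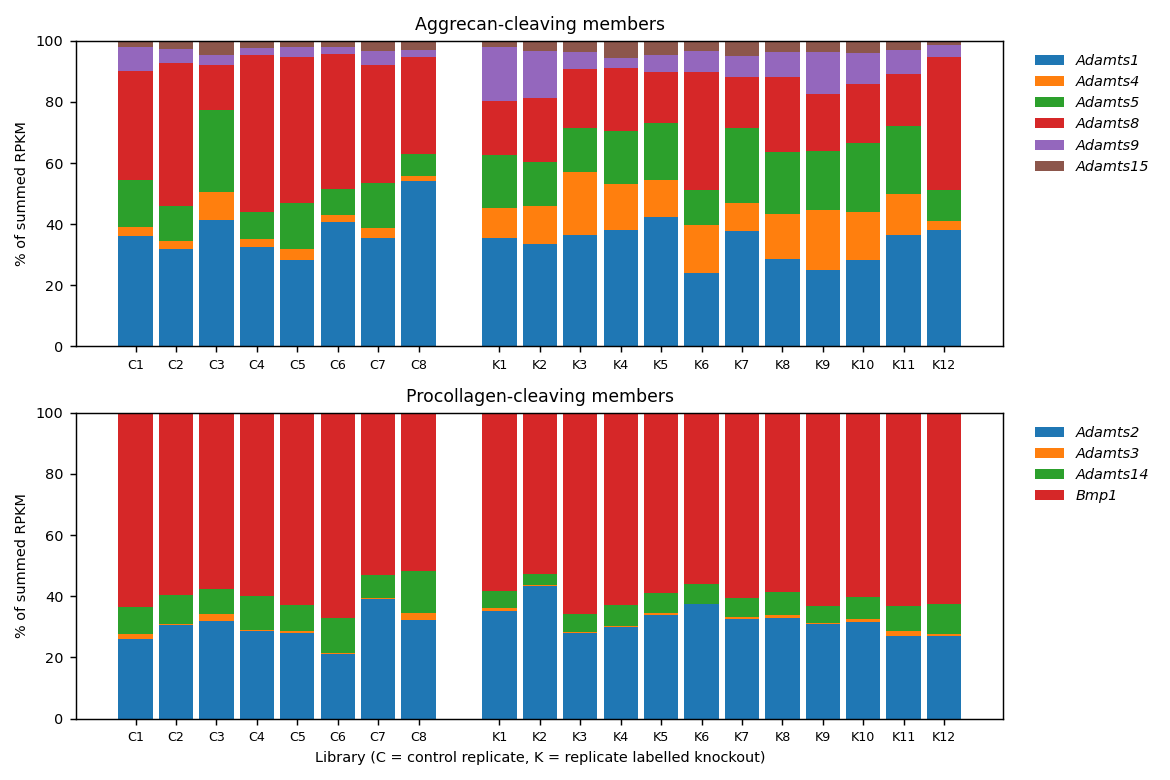
Make-up of the summed RPKM of the 6 aggrecan-cleaving genes (upper panel) and the 4 procollagen-cleaving genes (lower panel) in each library, in percent. Each bar is a library, 8 control on the left and 12 labelled knockout on the right; the *Adamts4* share is 1.74% to 8.89% in control and 3.01% to 20.7% in the libraries labelled knockout, while the *Bmp1* share stays between 51.7% and 67.1% throughout.

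Of the 4 procollagen-cleaving genes, 3 were higher. *Bmp1* ran from 47.3 CPM through a median of 118 to 239 in control and from 171 through 310 to 403 in the libraries labelled knockout. Of these 12 libraries, 9 lay above every control library, and all 12 lay above the control median. Its mean was 125 CPM ± 57.4 (SD, n = 8) against 295 ± 72.5 (SD, n = 12), which gave a log2 fold change of 1.24 (SE 0.23), or 2.36-fold (edgeR adjusted p = 0.00164). *Adamts2*, whose loss in humans and cattle leaves the N-propeptide on type I collagen and makes skin fragile, ran from 26.3 CPM through 69.5 to 112 and from 82.5 through 168 to 351. Here too 9 of 12 libraries exceeded the control range, with a log2 fold change of 1.43 (SE 0.28), or 2.69-fold (edgeR adjusted p = 0.00206).

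*Adamts14*, a close relative of *Adamts2*, ran from 7.43 CPM through 11.3 to 19.0 in control and from 11.3 through 18 to 26.0 in the other group. The groups overlapped more widely, with 5 of 12 libraries above the control range, and the log2 fold change was 0.70 (SE 0.17), or 1.62-fold (edgeR adjusted p = 0.00688). This call was lost with each of 4 cell type marker scores as covariate, at values from 0.22 to 0.54. *Adamts3*, which processes type II procollagen and also takes part in activating the lymphatic growth factor VEGF-C, was the least abundant gene of the 10, with 4 to 69 counts per library in control and 16 to 74 in the other group. It ran from 0.277 through 0.908 to 2.98 CPM in control and from 0.724 through 1.34 to 3.69 in the other group. The ranges overlapped in part, with 4 of 8 control libraries below every library labelled knockout and 4 of 12 of the latter above every control library. Its log2 fold change of 0.61 (SE 0.46) did not pass (edgeR adjusted p = 0.343, 95% interval of the fold 0.823 to 2.84).

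Per length, *Bmp1* was the most abundant of the 10 genes in both groups, at 14.1 RPKM ± 6.47 (SD, n = 8) and 33.2 ± 8.17 (SD, n = 12), and it exceeded *Adamts2* in each of the 20 libraries. *Adamts2* followed at 6.92 ± 2.92 and 18.7 ± 7.91, then *Adamts14* at 2.18 ± 0.715 and 3.55 ± 0.784, and *Adamts3* at 0.223 ± 0.191 and 0.347 ± 0.211. The sum of the 4 genes was 23.4 RPKM ± 9.88 (SD, n = 8) in control against 55.8 ± 16 (SD, n = 12) under the knockout label. *Bmp1* made up 59.5% ± 5.26 and 60.2% ± 3.68 of it, *Adamts2* 29.6% ± 5.25 and 32.5% ± 4.7, and *Adamts14* 9.87% ± 2.09 and 6.65% ± 1.59.

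Among the genes that assist or oppose these enzymes, an enhancer, 2 inhibitors, a convertase and a clearance receptor were higher and the others did not pass. *Pcolce*, which speeds C-propeptide removal by *Bmp1* products, was 154 CPM ± 63 (SD, n = 8) in control against 396 ± 96.8 (SD, n = 12) under the knockout label, an edgeR log2 fold change of 1.36 (SE 0.23, adjusted p = 0.00128). *Pcolce2* (0.46) and the *Bmp1* relative *Tll1* (0.10) did not pass, and *Tll2*, *Mep1a* and *Mep1b* were too low to test. Of 5 inhibitor genes, *Timp1* (log2 fold change 1.52, SE 0.26, edgeR adjusted p = 0.00128) and *Timp2* (0.84, adjusted p = 0.00437) were higher. *Timp3*, the inhibitor most active on aggrecanases, stood at 144 CPM ± 60.7 (SD, n = 8) and 155 ± 79.6 (SD, n = 12), an edgeR log2 fold change of 0.10 (SE 0.33, adjusted p = 0.857). *Timp4* (−0.73, adjusted p = 0.114) and *A2m* (−0.27, adjusted p = 0.864) did not pass. The median ratio of *Timp3* to *Adamts4* per length was 35.0 in control and 7.76 in the libraries labelled knockout, and all 12 of the latter were below the control median. This ratio restates the levels of the 2 genes and was not tested.

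Of the 6 genes of activation, docking and clearance, 2 were called, both higher. *Furin*, a proprotein convertase that activates ADAMTS precursors, had a log2 fold change with edgeR of 0.49 (adjusted p = 0.00492), and *Lrp1*, the clearance receptor, one of 0.74 (adjusted p = 0.0158). The convertases *Pcsk6* (0.72, adjusted p = 0.0566) and *Pcsk5* (0.49, adjusted p = 0.254), the *Adamts5*-binding proteoglycan *Sdc4* (0.51, adjusted p = 0.0575) and the matrix protein *Fn1* (0.49, adjusted p = 0.382) had positive values that did not pass.

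The substrates of both arms were read from the same fit. *Vcan*, the gene of versican, was higher, at 12.0 CPM ± 7.6 (SD, n = 8) and 27.5 ± 17.8 (SD, n = 12), an edgeR log2 fold change of 1.18 (SE 0.42, adjusted p = 0.0478). *Acan*, the gene of aggrecan and the site of the Cre insertion, ran from 2.22 to 276 CPM in control and from 5.18 to 244 in the other group, and its edgeR log2 fold change of −0.69 (SE 0.69, adjusted p = 0.489) was no larger than its error. *Bcan* did not pass (−0.16, adjusted p = 0.889), and *Ncan* was too low to test. Of 6 fibrillar procollagen genes, 5 were higher, with a median log2 fold change of 1.59. *Col1a1* was 3240 CPM ± 2965 (SD, n = 8) in control against 18303 ± 9541 (SD, n = 12) under the knockout label, an edgeR log2 fold change of 2.50 (SE 0.45, adjusted p = 0.00144). *Col1a2* (2.19, adjusted p = 0.00204), *Col3a1* (1.41, 0.00144), *Col5a1* (1.59, 0.00128) and *Col5a2* (1.60, 0.00144) were also higher, whereas the cartilage collagen *Col2a1* did not pass (0.99, SE 0.68, 0.299).

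Per length, the median ratio of *Col1a1* to *Bmp1* was 27.9 in control and 84.5 in the libraries labelled knockout, with 9 of 12 above the control maximum of 58.2. For *Col1a1* to *Adamts2* the medians were 61.9 and 160, with 11 of 12 above the control median, and for *Col3a1* to *Adamts2* they were 21.8 and 24.0, with 6 of 12 above it. These ratios restate the levels above and were not tested. Among other *Bmp1* substrates, the collagen crosslinking enzyme gene *Lox* (log2 fold change 1.96, edgeR adjusted p = 0.00144), *Bgn* (1.01, adjusted p = 0.0149) and the osteocyte gene *Dmp1* (1.79, adjusted p = 0.0133) were higher, and *Chrd* (0.18, adjusted p = 0.25) and *Ogn* (0.37, adjusted p = 0.394) did not pass.

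**Figure D4:**
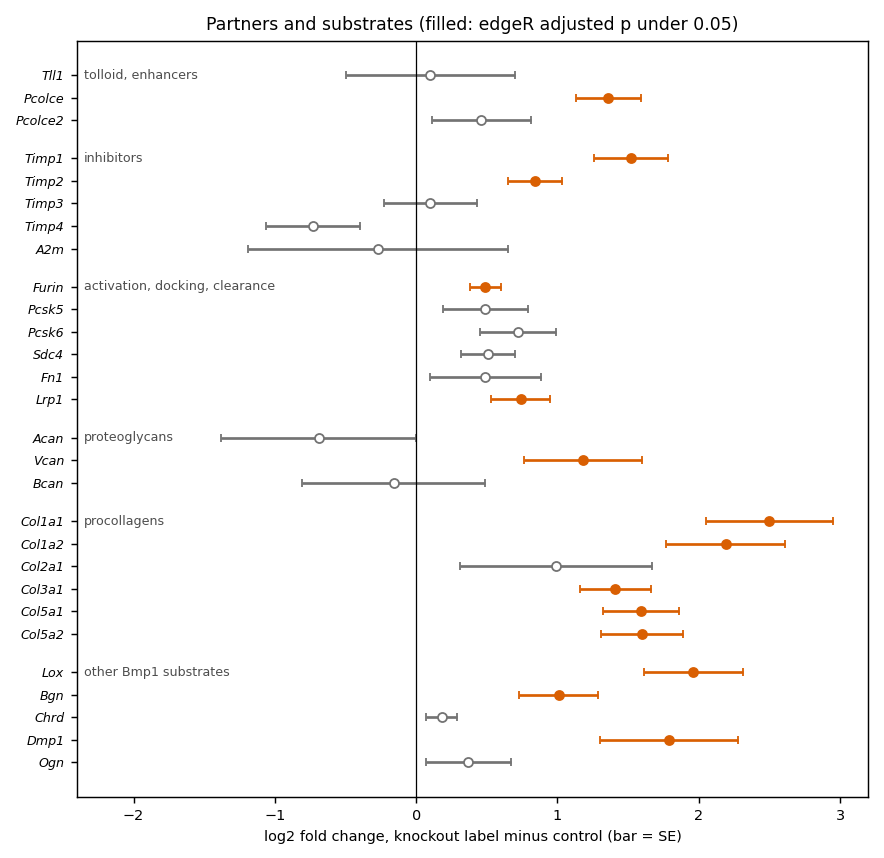
Log2 fold change, libraries labelled knockout minus control, of the enhancer, inhibitor, activation and clearance, and substrate genes tested, with bars of 1 SE from the edgeR fit. Filled points passed an adjusted p of 0.05; filled points lie to the right of 0 in every group, with *Col1a1* farthest at 2.50, while *Timp3* lies at 0.10 and *Acan* at −0.69, both open.

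Relatives outside the 10 genes were read from the same fit. Of 8 other ADAMTS genes tested, *Adamts7* (log2 fold change 0.72, edgeR adjusted p = 0.0121) and *Adamts12* (0.72, adjusted p = 0.036), which both cut the cartilage protein COMP, were higher and *Adamts20* (−0.53, adjusted p = 0.0362) was lower, with a median of 0.38. The *Adamts20* call was lost with scaling by library totals alone and when control replicate 1 or control replicate 8 was left out, among other alternatives. *Adamts13* and *Adamts19* were too low to test. The 7 ADAMTS-like genes, which lack the protease domain, had a median of −0.05 and 0 calls. Of 14 matrix metalloproteinase genes tested, 7 were higher (*Mmp2*, *Mmp9*, *Mmp13*, *Mmp14*, *Mmp16*, *Mmp19* and *Mmp23*) and 0 lower, with a median of 1.16 beside 0.65 over the 10 proteinase genes described here.

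Markers of several cell types moved with the groups. The lists were chosen with earlier results of these data known, so their p-values describe the lists and are not independent support. All 10 osteoclast markers were called higher, and their summed level ran from 158 to 1099 CPM in control and from 545 to 5839 in the libraries labelled knockout, with a difference in mean log2 CPM of 2.29 (exact permutation p = 0.000151, two-sided, 0.00107 after Benjamini-Hochberg adjustment over 10 lists). Of 8 macrophage markers, 6 were higher, with sums of 45.6 to 216 and 135 to 532 CPM (1.26, exact permutation p = 0.000214, adjusted 0.00107). Differences that also passed were those of the fibroblast list (0.71, adjusted p = 0.00963, sums of 487 to 2214 and 1555 to 3036 CPM, 2 of 6 genes higher), the mast cell list (2.06, adjusted p = 0.00963, 1.91 to 19.7 and 5.33 to 184 CPM, 4 of 6) and the osteoblast and osteocyte list (1.37, adjusted p = 0.038, 164 to 1778 and 279 to 3767 CPM, 4 of 8), all by exact permutation. The last of these lost its call in 12 of 23 alternatives, among them without control replicate 8 (0.99, adjusted exact permutation p = 0.108). The chondrocyte (0.46, adjusted p = 0.343), endothelial (−0.14, 0.343), mural (−0.37, 0.115), neutrophil (1.90, 0.0605) and skeletal muscle (−0.72, 0.0605) lists did not pass. By gene, however, 4 of 10 muscle markers were called lower, with median sums of 77908 CPM in control and 59728 in the libraries labelled knockout. Called higher were 2 of 7 chondrocyte markers tested and 1 of 8 neutrophil markers. Of 6 mural markers 1 was called lower, and 0 of 8 endothelial markers were called. Some markers of these lists were at 0 in single libraries, namely *Calcr*, *Fcgr1*, *Sost*, *Cpa3* and *Mpo* in 1, *Retnlg* in 2, *Elane* in 3 and *Ms4a2* in 7.

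With the osteoclast list score as a covariate, 0 of the 10 genes were called, and 0 of all 15984 genes were called in edgeR with 1254 at an unadjusted p under 0.05. The log2 fold changes were then 1.39 for *Adamts4* (SE 0.44, edgeR adjusted p = 0.597), 0.35 for *Bmp1* (0.732), 0.23 for *Adamts2* (0.878), 0.22 for *Adamts14* (0.876), −0.26 for *Adamts9* (0.932) and −1.17 for *Adamts8* (0.597). Because this score differed between the groups, the covariate and the label share variation. With the osteoblast and osteocyte, skeletal muscle or fibroblast list score in its place, *Adamts4*, *Adamts2* and *Bmp1* were called in each fit, and *Adamts9* and *Adamts14* in none of the 3. *Adamts9* was then 0.59 (adjusted p = 0.301), 0.62 (0.0885) and 1.17 (0.118), the last close to its value of 1.23 without a covariate, and *Adamts14* was 0.42 (0.109), 0.49 (0.0623) and 0.54 (0.113). The part of these cell types in the results was not tested.

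Some libraries stood at the ends of several genes. Control replicate 3 was the highest control library for *Adamts4*, *Adamts5*, *Adamts15* and *Adamts3* and the lowest for *Adamts8*. Control replicate 5 was the highest control library for *Adamts8*, *Adamts2*, *Adamts14* and *Bmp1*. Knockout replicate 2 was the highest of its group for *Adamts9*, *Adamts2* and *Bmp1*. Control replicate 8 was the lowest control library for *Adamts4*, *Adamts5*, *Adamts9*, *Adamts14* and *Bmp1*. Its sums were the lowest of the 20 libraries for the chondrocyte, fibroblast, osteoblast and osteocyte, osteoclast, macrophage, neutrophil and mast cell lists. Its muscle sum was the highest (183839 CPM). Knockout replicate 12 was the lowest of its group for *Adamts4*, *Adamts5*, *Adamts9*, *Adamts15* and *Adamts2* and the highest for *Adamts8*. With control replicate 8 and knockout replicate 12 both left out, 5 genes were higher as before and *Adamts8* was called lower (−0.94, edgeR adjusted p = 0.0159). The choice of these libraries was made after the data were seen. All 5 genes called higher kept their call when each of the 20 libraries was left out in turn.

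Finally, the 10 genes were related to each other among libraries of the same label, over 45 pairs in each group. Of these 90 relations, 5 passed adjustment by Pearson's r and the same number by Spearman's rho, and 15 had an unadjusted p under 0.05. In control, *Adamts4* and *Adamts5* varied together (r = 0.94, n = 8, exact permutation p = 4.96e-05, adjusted 0.00223; rho 0.98, p = 0.000397), as did *Adamts14* and *Bmp1* (r = 0.93, exact permutation p = 0.000942, adjusted 0.0212; rho 0.93, p = 0.00223). Without the 2 farthest libraries these values of r were 0.92 and 0.88. In the libraries labelled knockout, *Adamts2* and *Bmp1* (r = 0.91, n = 12, permutation p = 1e-05, the smallest that the resamples allow, adjusted 0.0009; rho 0.92, p = 5e-05), *Adamts9* and *Adamts2* (r = 0.84, permutation p = 0.00057, adjusted 0.0171; rho 0.89, p = 0.00034) and *Adamts9* and *Bmp1* (r = 0.80, permutation p = 0.00173, adjusted 0.0311; rho 0.91, p = 0.00013) varied together. Without the 2 farthest libraries these were 0.87, 0.73 and 0.72. The *Adamts4* and *Adamts5* relation was r = 0.49 in the libraries labelled knockout (n = 12, permutation p = 0.106, adjusted 0.398), and the difference between the groups was not tested. Without knockout replicate 2 or without replicate 12, 3 relations passed.

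For the 5 genes called, the 3 protein-coding genes whose pattern was most alike were listed by Pearson's r over the 20 libraries after each group's mean was subtracted, as a description. They were *Tnc*, *Rab34* and *Pcolce* for *Bmp1* (each 0.94), *Scarf2*, *Scpep1* and *Mrc2* for *Adamts2* (each 0.91), *P3h1* (0.82), *Col1a2* (0.82) and *Col1a1* (0.80) for *Adamts14*, *Prr5l* (0.91), *Frmd4a* (0.90) and *Enpp5* (0.90) for *Adamts9*, and *Gabpb1* (0.85), *Gmds* (0.84) and *Serf1* (0.81) for *Adamts4*. The libraries share their scaling and their tissue make-up.

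**Figure D5:**
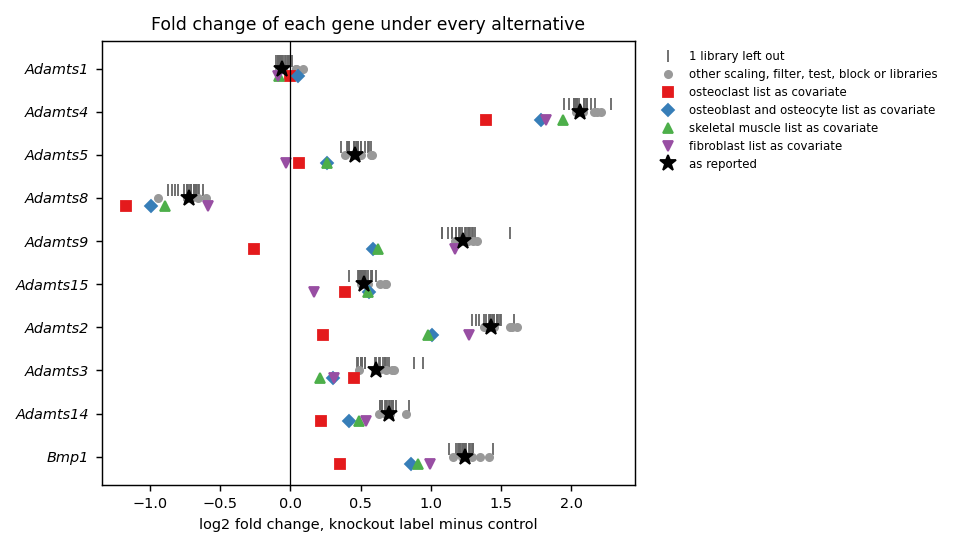
Log2 fold change of each proteinase gene, libraries labelled knockout minus control, as reported (star), with 1 library left out (ticks), under other scalings, filters, tests, the replicate block and library choices (grey points), and with a marker list score as covariate (coloured symbols). The ticks for *Adamts4* span 1.95 to 2.28, while the osteoclast covariate moves it to 1.39 and *Adamts9* to −0.26.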

How the data were processed

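The authors extracted total RNA with TRIzol, sequenced paired ends on an Illumina platform, used the sequencing provider's Perl script for trimming, and mapped to mouse mm10. Gene-level counting was done in featureCounts 1.5.0. The deposited values are raw counts per Ensembl gene, with no pooling. The aligner, annotation release, use of strand and treatment of multi-mapped reads were not given in the sources used here, so reads of overlapping genes are uncertain.

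Of 54532 genes, 54495 matched GENCODE M21 (GRCm38/mm10). Library totals of 11153820 to 27045668 counts set a floor of 3 counts, which covers counting error only. Groups and replicate numbers came from the sample titles. Libraries are taken as separate animals.

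Genes kept by filterByExpr were tested with edgeR 4.0.16 (R 4.3.3; TMM scaling, quasi-likelihood F-test, two-sided, Benjamini-Hochberg over 15984 genes, threshold 0.05). log2 CPM used a prior count of 2, RPKM divided TMM-scaled CPM by the union of exons, and the 95% interval of a fold is a normal one from the SE. Marker list scores were compared by exact permutation over 125970 assignments, and pairs over 40320 pairings (n = 8) or 100000 resamples (n = 12). The procedure was tested on simulated counts.

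The 10 genes, the pathway lists and the marker lists were chosen with earlier results of these data known. Named genes were all members, *Loxl2*, listed inhibitor, activation and substrate genes, other listed genes when called, and the 3 most alike genes of each called member. *Pcolce2*, *Tll1*, listed genes too low to test and genes that overlap a member were named outside this rule, after their values were seen. A result on 1 further gene is not reported here. Alternatives were other scalings, DESeq2 1.42.0 (the study's test), other filters, robust dispersion, a replicate block, marker covariates and omission of libraries. Omission of 2 libraries together, and alternatives for marker lists and pairs, were added after seeing the data.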

Additional observations from a re-analysis of the deposited data

Results flagged for a closer look

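Among the 8 control libraries, 2 genes had a single library far from the others by Dixon's criterion at its 95% level. *Adamts9* was at 21.9 CPM in control replicate 1, with a gap to the next library that was 0.618 of the whole range. *Adamts14* was at 19.0 CPM in control replicate 5, with a gap of 0.545 of the range. These were the highest libraries of the control group, so each lies toward the level of the libraries labelled knockout. In 11 genes tested, chance alone would mark about 1 in 20, and the group of 12 was not examined this way.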

How the results depend on the processing

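Over 15 alternatives other than omission of single libraries, 128 of 150 member values kept their direction and their side of the threshold. The count of members called higher was 5, and it was 0 with the osteoclast list as covariate and 3 with the osteoblast and osteocyte, the skeletal muscle or the fibroblast list as covariate. It was 4 with the replicate block and 6 in the same 16 libraries with no block, where *Adamts15* was added (0.68, adjusted p = 0.0218). The count of members called lower was 0, and it was 1 (*Adamts8*) with the DESeq2 Wald test, with protein-coding genes alone and with control 8 and knockout 12 both left out. Of 66 listed pathway genes, among them those too low to test, 23 were called higher, beside 12.0% of all tested genes. This count was 0 with the osteoclast and 14 with the fibroblast covariate. The count called lower was 1 (*Adamts20*), and it was 2 with DESeq2. It was 0 with library totals alone, the replicate block, the same 16 libraries with no block, the osteoclast covariate or both libraries left out. *Loxl2* (0.64) passed at 0.57 with both left out. Pairs that passed were 5, and 13 with library totals alone.

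When single libraries were left out, members called higher ranged from 5 to 6, members called lower from 0 to 1, pathway genes called higher from 21 to 25 and lower from 0 to 3, pairs from 3 to 6, and *Loxl2* from 0.50 to 0.78 on the log2 scale. *Adamts1* (−0.06) changed sign at 0.09 with library totals alone, 0.04 with the block, 0.04 with the same 16 libraries, 0.00 with the osteoclast and 0.05 with the osteoblast and osteocyte covariate, and ranged from −0.10 to 0.01 over omitted libraries. *Adamts9* was −0.26 with the osteoclast covariate, *Adamts5* −0.03 with the fibroblast covariate, and the endothelial list 0.01 with library totals alone. The osteoblast and osteocyte list lost its call in 12 of 23 alternatives, and the neutrophil and muscle lists gained one in 4 each. The cause of these changes was not tested.

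Replicate numbers are shared by the groups but did not pair the samples: the correlation of same-numbered libraries ran from −0.394 to 0.143, and 0 of 8 control libraries correlated best with their own number. With the number as a block on 16 libraries, 1786 genes were called, beside 3280 without the block and 3673 in all 20 libraries, and *Adamts14* no longer passed (0.70, adjusted p = 0.0815) while the other 4 called genes did. All-gene calls were 0, 526, 750 and 1224 with the osteoclast, fibroblast, osteoblast and muscle covariates. Depth limits *Adamts3*, with as few as 4 counts in a library.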
